A study of Mus musculus with 2 samples.

Results

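Gata1, Gata2, Klf1, Zfpm1, Tal1, Gfi1b, Epor, Car1 and Car2 are 9 of the 32285 genes counted in single-cell RNA libraries of mouse bone marrow, taken by symbol as regulators and products of the erythroid and megakaryocyte lineages. The knockout library came from Trsp f/f:Mx1-Cre mice and the control library from Trsp f/f mice, all C57BL/6. Trsp encodes the tRNA that inserts selenocysteine, and Mx1-Cre is an interferon-inducible Cre that is active in blood-forming cells and not confined to them. Mice of both genotypes received 3 injections of 500 µg of pI-pC, a synthetic double-stranded RNA that induces Mx1-Cre, so the controls had the same injections without Cre. The series record ties the injections to 7 weeks after birth without saying whether they began or ended then, and marrow was sampled 9 weeks after the last one. Lineage-, cKit+ cells of femora and tibiae were frozen, thawed and loaded. Each genotype has 1 library, and the number of mice behind it was not given in the sources used.

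Gata2 and Gata1 encode zinc finger factors that bind the same DNA motif. Gata2 works in stem cells, early progenitors and mast cells, and Gata1 replaces it on chromatin as erythroid cells mature. Zfpm1 encodes FOG1, the cofactor that GATA1 needs in erythroid and megakaryocytic cells, and Tal1 encodes SCL, a basic helix-loop-helix factor that shares enhancers with GATA1. Gfi1b encodes a zinc finger repressor of both lineages. Klf1 encodes an erythroid activator of the adult beta globin gene, Epor the receptor of erythropoietin, and Car1 and Car2 encode cytoplasmic carbonic anhydrases of red cells, with Car2 also used in many other cells.

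The libraries held 11556 barcodes and 152092210 UMIs (unique molecular identifiers, each standing for 1 captured transcript) for the knockout, and 14372 barcodes and 184683653 UMIs for the control. Filters left 6640 knockout cells with a median of 20744 UMIs and 8046 control cells with a median of 20352 UMIs. Of these, 1127 knockout cells (17.0%) and 277 control cells (3.44%) had under 5000 UMIs and were given no class. The libraries shared 39 barcodes, 10 of them among the kept cells of both. Trsp itself was not measured, and the mRNAs of 4 selenoproteins served as the check of genotype. Gpx1 stood at 253 CPM (UMIs per 1000000 UMIs of the cells summed) in knockout cells and 1508 CPM in control cells, and Gpx4, Selenow and Selenoh were also lower in the knockout. Kit, which the sort selected for, was at 114 CPM in knockout cells and 98.8 CPM in control cells.

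Cells were put into classes by marker panels that hold none of the 9 genes. An erythroid progenitor-like cell had at least 3 UMIs of a panel of red cell genes that includes Ermap, Rhd, Rhag, Aqp1, Cldn13, Ank1, Tspo2, Atp1b2 and Sphk1 after each cell was thinned to 5000 UMIs. Megakaryocyte-like cells were gated on Pf4, Gp9, Itgb3 and similar platelet genes. Megakaryocyte-erythroid progenitor-like cells were gated on at least 2 UMIs of Mfsd2b, Apoe, F2r, Samd14 and Cnrip1. This gate is low, with a median of 3 panel UMIs in knockout and 2 in control cells of the class. Within 1.5 times the gate lay 53 of 75 knockout and 101 of 128 control cells. The erythroid class was led by the globin genes, Mt2, Ermap and Aqp1, and the megakaryocyte class by Pf4, Cavin2 and Vwf, over all other cells. Of these, Ermap, Aqp1, Pf4 and Cavin2 are markers of the gates themselves, so their lead was built in. The classes held 104 knockout and 80 control erythroid cells, 75 and 128 megakaryocyte-erythroid cells, and 21 and 33 megakaryocyte cells. With 1 library per genotype no test could be made and no p-value is given. Every interval is an exact 95% interval on UMIs or cells, covers counting error only, and says nothing of the spread between mice.

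In GENCODE M21 on GRCm38 (mm10) none of the 9 genes shares exon bases with another gene. Promoter sequences were found in RefSeq (GRCm38.p6) for 7 of the 9 members, at 9 start sites. The 250 bases before each start were searched on both strands for the GATA motif in 4 forms, which are AGATAA, then AGATAG, then TGATAA and then TGATAG. It was present at 4 of the 9 start sites, 1 each of Klf1, Epor, Gfi1b and Tal1, and in 26.5% of 32851 promoters. The CCNCNCCC motif bound by KLF factors was present at 7 of the 9, against 45.9% of all promoters. Its letters overlap those of other GC-rich motifs. The E-box CAGNTG, the kind of site SCL binds, was present at 2 of the 9, against 44.8% of all. Of the 4 promoters with a GATA match, 3 belong to genes that were highest in the erythroid class in both libraries, and these are shown 5′ to 3′ with the GATA match, on either strand, in capitals. A match is a description of these letters and not a measured binding site.
Klf1, chr8:84901732-84901981, plus strand: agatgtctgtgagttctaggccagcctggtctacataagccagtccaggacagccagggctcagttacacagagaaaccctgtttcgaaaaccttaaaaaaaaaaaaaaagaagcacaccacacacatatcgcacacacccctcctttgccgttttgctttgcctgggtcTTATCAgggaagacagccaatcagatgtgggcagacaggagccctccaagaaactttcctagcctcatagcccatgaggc
Epor, chr9:21963577-21963826, minus strand: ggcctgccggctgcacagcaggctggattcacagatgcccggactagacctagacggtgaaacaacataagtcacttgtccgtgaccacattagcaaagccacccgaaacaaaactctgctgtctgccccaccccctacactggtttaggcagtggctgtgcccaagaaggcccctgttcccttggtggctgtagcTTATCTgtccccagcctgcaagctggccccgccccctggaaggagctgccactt
Gfi1b, chr2:28621983-28622232, minus strand: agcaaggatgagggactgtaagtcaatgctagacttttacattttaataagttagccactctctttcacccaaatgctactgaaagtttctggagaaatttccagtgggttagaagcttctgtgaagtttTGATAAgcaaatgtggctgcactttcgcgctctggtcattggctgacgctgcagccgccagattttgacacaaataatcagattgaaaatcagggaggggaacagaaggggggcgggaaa
The match began 80 bases before the annotated start in Klf1, 54 bases in Epor and 120 bases in Gfi1b. Epor also held 4 CCNCNCCC matches and Gfi1b 2, while the Klf1 window held 0 of that motif and 1 E-box.

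The 2 GATA factors were highest in different classes. Gata1 (ENSMUSG00000031162, chrX:7959260-7978071, minus strand) was highest in erythroid cells, at 103 CPM in the knockout and 116 CPM in the control. It came next in megakaryocyte-erythroid cells (66.1 CPM knockout, 49.5 CPM control) and megakaryocyte cells (50.7 CPM knockout, 58.0 CPM control), whose intervals overlap in each library. Basophil or mast-like cells had 36.7 CPM in the knockout and 34.3 CPM in the control, and eosinophil-like cells 39.4 and 26.9 CPM. HSC-like cells had 1.17 CPM in the knockout and 0.94 CPM in the control, from 8 and 6 UMIs.

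Gata2 (ENSMUSG00000015053, chr6:88193891-88207032, plus strand) was highest outside the erythroid branch. Basophil or mast-like cells had 731 CPM (705 to 758) in the knockout and 624 CPM (604 to 645) in the control, and supplied 31.4% of Gata2 UMIs in the knockout and 33.9% in the control. The order below them was the same in both libraries. Megakaryocyte-erythroid cells had 392 CPM in the knockout and 354 CPM in the control, megakaryocyte cells 313 and 184 CPM, HSC-like cells 116 and 101 CPM, eosinophil-like cells 91.7 and 92.3 CPM, and erythroid cells 57.0 and 46.3 CPM. Of the summed Gata1 and Gata2 UMIs, Gata2 made up 99.0% in knockout HSC-like cells and 99.1% in control ones, 85.6% and 87.7% in megakaryocyte-erythroid cells, and 35.6% and 28.6% in erythroid cells.

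The same order was seen cell by cell at 5000 UMIs per cell. Among megakaryocyte-erythroid cells, 40 of 75 knockout cells and 70 of 128 control cells held Gata2 UMIs without Gata1. A further 14 knockout and 19 control cells held both, and 1 knockout and 2 control cells held Gata1 alone. Among erythroid cells, Gata1 alone was found in 37 of 104 knockout and 28 of 80 control cells, both genes in 9 and 5 cells, and Gata2 alone in 15 and 11 cells. Monocyte progenitor-like cells, taken as a class that should lack Gata1, had a Gata1 UMI in 0.278% of 1079 knockout cells and 0.0553% of 1807 control cells. Erythroid cells had one in 44.2% of knockout and 41.2% of control cells at the same depth, and in 97.1% and 91.2% without thinning. The unthinned shares are at unequal depth, with medians of 47191 UMIs in knockout and 36269 in control erythroid cells. A cell without a UMI at 5000 UMIs is not shown to lack the transcript.

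**Figure D1:**
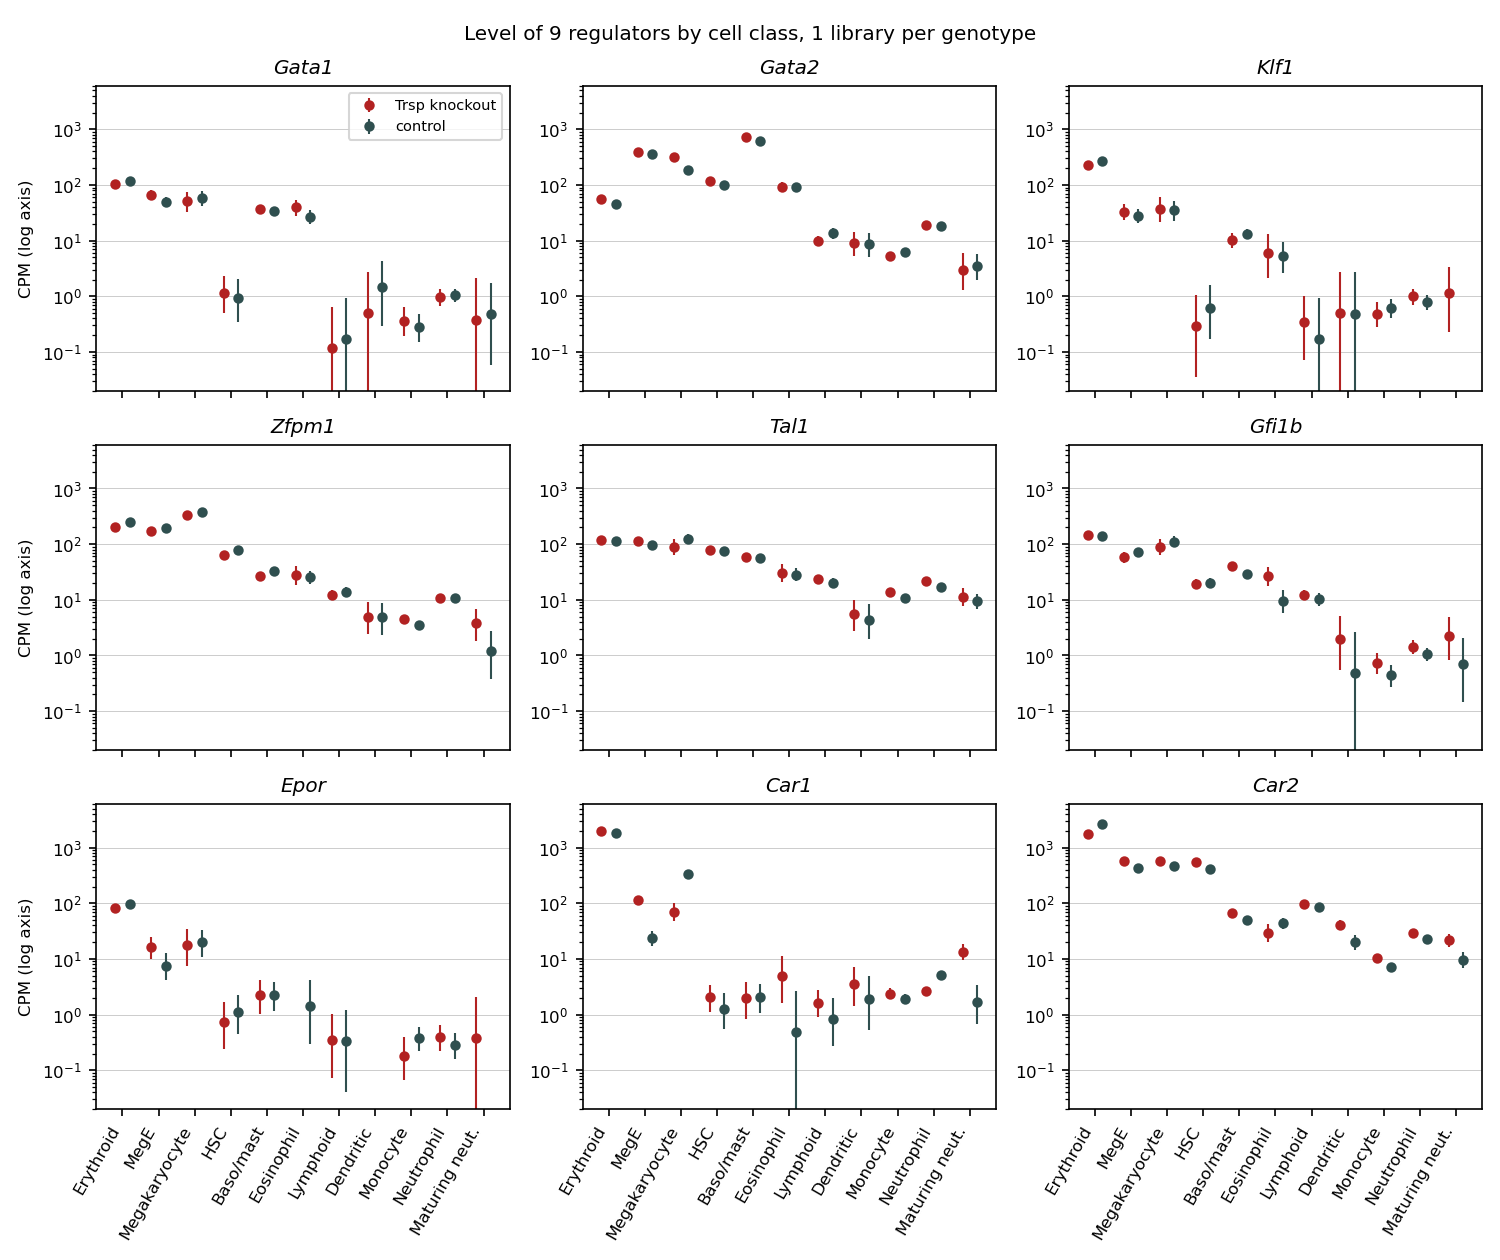
Level of each of the 9 genes in CPM (log axis) in 11 classes, knockout (red) left of control (dark), with exact Poisson 95% intervals that cover counting error only. Classes with 0 UMIs have no point. Klf1, Epor and Car1 drop by more than a power of 10 outside the erythroid and megakaryocytic classes, Gata2 peaks in basophil or mast-like cells, and Tal1 and Car2 decline gradually.

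Klf1, Epor and Car1 were concentrated in the erythroid class. Klf1 (ENSMUSG00000054191, chr8:84901928-84905291, plus strand) stood at 224 CPM in knockout and 269 CPM in control erythroid cells. It was at 33.1 and 27.8 CPM in megakaryocyte-erythroid cells, and at 37.5 and 35.4 CPM in megakaryocyte cells, levels whose intervals overlap. In the megakaryocyte class 1 knockout cell held 10 of the 17 Klf1 UMIs and 1 control cell 23 of the 25, and without those cells the levels were 17.1 and 3.34 CPM. Erythroid cells, which were 1.89% of knockout and 1.03% of control cells with at least 5000 UMIs, supplied 74.2% of all Klf1 UMIs in the knockout and 62.8% in the control. At 5000 UMIs a Klf1 UMI was found in 70.2% of knockout and 67.5% of control erythroid cells, against 0.278% and 0.498% of monocyte progenitor-like cells.

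Epor (ENSMUSG00000006235, chr9:21958897-21963506, minus strand) had 83.7 CPM in knockout and 95.9 CPM in control erythroid cells. The next classes, megakaryocyte and megakaryocyte-erythroid cells, lay between 16.2 and 17.6 CPM in the knockout and between 7.62 and 19.8 CPM in the control, from at most 21 UMIs each. In the control 1 megakaryocyte cell held 7 of 14 UMIs, and without it the level was 11.7 CPM. Erythroid cells supplied 75.9% of Epor UMIs in the knockout and 65.3% in the control. Epor UMIs were 0 in dendritic-like cells of both libraries.

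Car1 (ENSMUSG00000027556, chr3:14766216-14808368, minus strand) reached 2017 CPM in knockout and 1824 CPM in control erythroid cells. Erythroid cells supplied 88.5% of Car1 UMIs in the knockout and 80.5% in the control, the highest share of any of the 9 genes in either library. HSC-like cells had 2.05 CPM in the knockout and 1.25 CPM in the control, from 14 and 8 UMIs. At 5000 UMIs per cell, 91.3% of knockout and 92.5% of control erythroid cells had a Car1 UMI, against 1.95% and 0.443% of monocyte progenitor-like cells.

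Car2 (ENSMUSG00000027562, chr3:14886273-14900770, plus strand) was spread more widely than Car1. Erythroid cells had 1784 CPM in the knockout and 2676 CPM in the control, and supplied 39.3% and 41.0% of its UMIs. Megakaryocyte-erythroid, megakaryocyte and HSC-like cells came next, at 582, 575 and 560 CPM in the knockout and 429, 471 and 410 CPM in the control. In the knockout the intervals of these 3 classes overlap. In the control 1 megakaryocyte cell held 147 of the 333 UMIs of its class, and without it that level was 311 CPM. A Car2 UMI was found at 5000 UMIs in 87.6% of 459 knockout and 79.8% of 496 control HSC-like cells, against 6.12% and 2.66% of monocyte progenitor-like cells.

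Zfpm1, Tal1 and Gfi1b spanned both branches. Zfpm1 (ENSMUSG00000049577, chr8:122282141-122337251, plus strand) was highest in megakaryocyte cells, at 330 CPM in the knockout and 376 CPM in the control. It followed in erythroid cells, at 200 and 246 CPM, and in megakaryocyte-erythroid cells, at 170 and 196 CPM. HSC-like cells had 64.2 and 78.8 CPM.

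Tal1 (ENSMUSG00000028717, chr4:115056426-115071755, plus strand) differed least between classes. Erythroid, megakaryocyte-erythroid and megakaryocyte cells had 120, 114 and 90.3 CPM in the knockout and 116, 95.8 and 123 CPM in the control, with intervals that overlap between neighbours. HSC-like cells had 79.5 CPM in the knockout and 73.8 CPM in the control, and neutrophil progenitor-like cells 21.9 and 16.9 CPM.

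Gfi1b (ENSMUSG00000026815, chr2:28609450-28621982, minus strand) had 148 CPM in knockout and 142 CPM in control erythroid cells. It had 90.3 and 110 CPM in megakaryocyte cells, 58.5 and 73.0 CPM in megakaryocyte-erythroid cells, and 40.4 and 29.2 CPM in basophil or mast-like cells. Monocyte progenitor-like cells had a Gfi1b UMI in 0.371% of knockout and 0.277% of control cells at 5000 UMIs, against 52.9% and 45.0% of erythroid cells.

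Across 12 classes in both libraries (24 points, 2 from each class), the genes most like each member were found by the Pearson correlation of log2(CPM + 5), over genes with at least 500 UMIs that were in no marker panel. The points of a library share its depth and free RNA, so these values describe the profiles only. Klf1, Epor and Car1 came out beside each other. Epor had Car1 (r = 0.97) and Klf1 (0.97) as its nearest genes, and Klf1 had Ces2g, Epdr1 and Epor (0.97 each). Car2 was instead nearest to Hemgn (0.97), Nefh and Aqp9 (0.95 each), and its r with Car1 was 0.77. Zfpm1 and Gfi1b were mutual neighbours (0.95), and Tal1 had Zfpm1 first (0.94). Gata2 had Slc18a2 and Slc22a3 (0.97 each) and Tnik (0.96), its r with Car1 was 0.29, and Gata1 had Mical3 (0.93), Tnk2 and Tango2 (0.92 each).

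Over all kept cells, each of the 9 genes had a higher CPM in the knockout than in the control, and Car1 alone was at least 1.5-fold apart. Of 14106 genes with at least 50 UMIs over both libraries, 8.24% were 1.5-fold or more apart in either direction, and the median log2 ratio over all of them was 0.12. Car1 had 80.2 CPM in the knockout and 40.6 CPM in the control (log2 ratio 0.98, 0.94 to 1.03). The other 8 lay below 1.5-fold. Epor had 3.88 CPM in the knockout and 2.63 CPM in the control (0.56), Gfi1b 15.0 and 10.7 CPM (0.49), Klf1 10.6 and 7.68 CPM (0.47), and Car2 160.0 and 117.0 CPM (0.45). Tal1 had 34.7 and 28.0 CPM (0.31) and Gata1 8.52 and 7.19 CPM (0.24). Gata2, at 68.2 and 65.1 CPM (0.07), and Zfpm1, at 29.9 and 29.1 CPM (0.04), lay under the median of all genes, so scaling to that median puts both below the control.

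The erythroid class was also a larger part of the knockout library, with 104 of 5513 cells of at least 5000 UMIs (1.89%) against 80 of 7769 (1.03%) in the control (log2 ratio of shares 0.87, 0.46 to 1.29). Megakaryocyte-erythroid cells were 1.36% of those knockout cells and 1.65% of those control cells (-0.28, -0.68 to 0.13), and megakaryocyte cells 0.381% and 0.425% (-0.16, -0.94 to 0.63). With the knockout's class levels weighted by the control's class shares of UMIs, the log2 ratio of Car1 was 0.13, that of Klf1 -0.20 and that of Epor -0.14. Gfi1b stood at 0.13, Tal1 at 0.16, Gata2 at 0.06, Car2 at -0.02, Gata1 at -0.05 and Zfpm1 at -0.21. Under that weighting 0 of the 9 genes was 1.5-fold apart, against 7.37% of all genes, and 5 of the 9 lay below the control. A stricter filter of 1000 genes and a mitochondrial share under 5% left 59.5% of kept knockout cells and 83.6% of kept control cells. Erythroid cells went the other way, with 87 of 104 left in the knockout (83.7%) and 51 of 80 in the control (63.7%). The part of this unequal loss in the values that follow was not tested. The log2 share ratio of the erythroid class was then 1.59, and 5 of the 9 genes were at least 1.5-fold higher in the knockout, against 5.52% of all genes measured under that filter (Car1 1.5, Epor 1.01, Klf1 0.91, Gfi1b 0.69 and Car2 0.66).

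**Figure D2:**
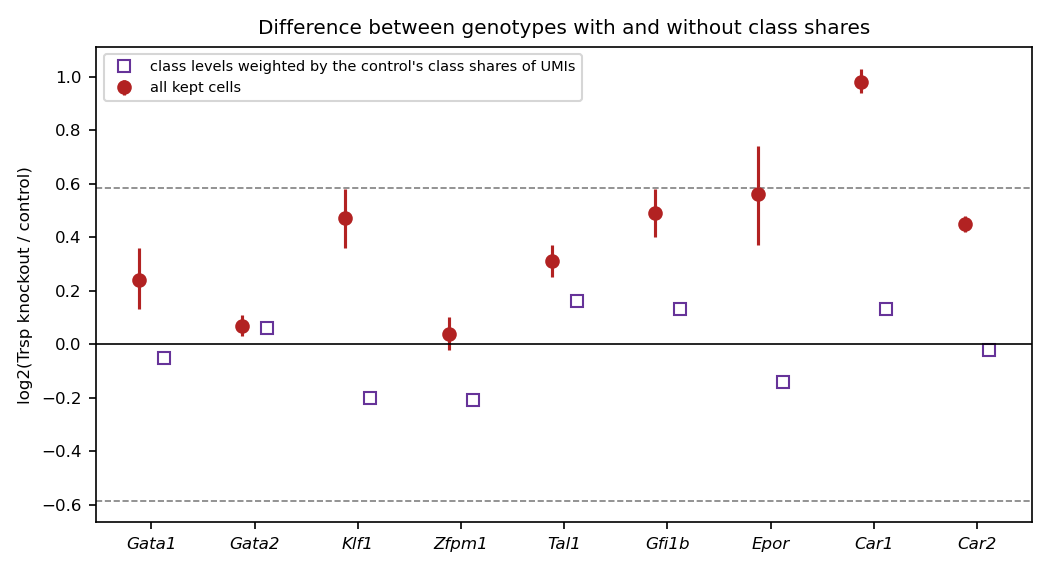
Log2 ratio of knockout over control for each gene over all kept cells (filled circles, exact 95% intervals of counting error) and with knockout class levels weighted by the control's class shares of UMIs (open squares). Dashed lines mark 1.5-fold. Car1 lies at 0.98 over all cells and at 0.13 at the control's class shares.

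Within the erythroid class, 1 of the 9 genes was 1.5-fold apart, against 13.2% of the 8163 genes measured there. That gene was Car2, lower in the knockout at 1784 CPM against 2676 CPM in the control (log2 ratio -0.59, -0.63 to -0.54). The difference sat on the 1.5-fold line: it fell short of it with doublets kept, with another random draw of the thinning, under each other gate setting and with cells weighted equally (-0.52 to -0.58). The median cell had 1656 CPM of Car2 in the knockout and 2638 CPM in the control. Car1, its neighbour on the same chromosome, went the other way by a smaller amount, at 2017 CPM against 1824 CPM (0.15, 0.10 to 0.19). Of the summed Car1 and Car2 UMIs, Car1 made up 53.1% (52.4 to 53.8) in knockout and 40.5% (39.7 to 41.4) in control erythroid cells. Klf1 (-0.26) and Zfpm1 (-0.30) were lower in the knockout with intervals below 0, and the intervals of Gata1 (-0.17), Gata2 (0.30), Tal1 (0.05), Gfi1b (0.06) and Epor (-0.20) included 0.

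**Figure D3:**
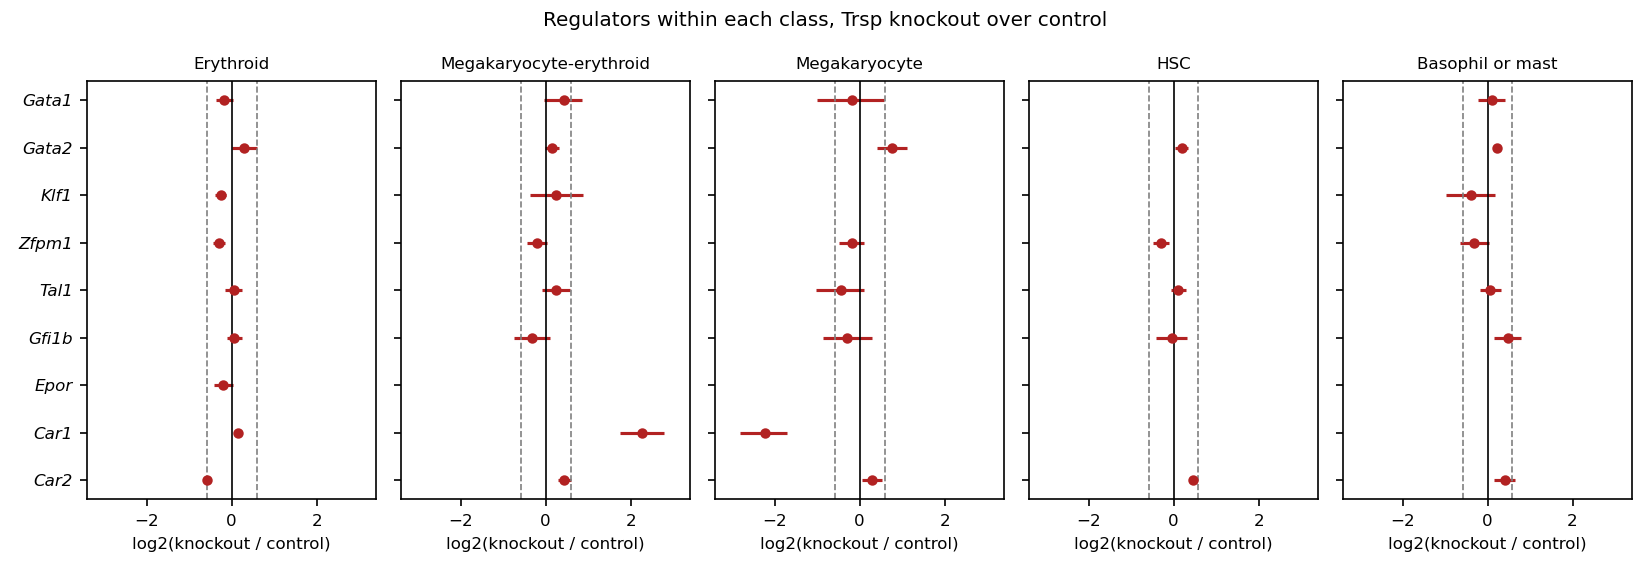
Log2 ratio of knockout over control for the 9 genes within 5 classes, with exact 95% intervals of counting error; dashed lines mark 1.5-fold, and genes with under 50 UMIs in a class have no point. In erythroid cells Car2 lies at -0.59 and the others between -0.30 and 0.30, while Car1 lies at 2.26 in megakaryocyte-erythroid cells and -2.24 in megakaryocyte cells.

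Knockout erythroid cells carried fewer UMIs of the marker panel that gated them. The median was 6 panel UMIs at 5000 UMIs per cell in the knockout and 10 in the control, and 30 knockout and 9 control cells lay within 1.5 times the gate. The panel of neutrophil progenitor markers also differed in this class, with 5 of 6 markers found and 218 CPM in the knockout, and 6 of 6 found and 873 CPM in the control. The part of these differences in the ratios of the 9 genes was not tested. The class was split at 9 panel UMIs, a division chosen after the data were seen, and the values of its parts are descriptive only. Of the knockout cells 75 had 3 to 8 panel UMIs and 29 had 9 or more, against 32 and 48 of the control cells. Depth still differed within each part. The median cell had 43854 UMIs in the knockout and 29844.5 in the control in the lower part, and 53046 and 39157.5 in the upper part.

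Gata2 showed the clearest step along the panel. It had 76.3 CPM in knockout and 88.7 CPM in control cells with 3 to 8 panel UMIs, and 14.5 and 24.0 CPM in cells with 9 or more. Its log2 ratio over the whole class was 0.30, yet it was -0.22 (-0.57 to 0.14) in the lower part and -0.73 (-1.53 to 0.03) in the upper part. Gata1 varied little, at 99.7 CPM in knockout and 101 CPM in control cells of the lower part, and 110 and 123 CPM in the upper part. Car2 increased with the panel in both libraries, with 1564 CPM in knockout and 1910 CPM in control cells of the lower part (-0.29, -0.36 to -0.21) and 2266 and 3078 CPM in the upper part (-0.44, -0.50 to -0.38). Car1 was slightly higher in the knockout in both parts (0.15 and 0.22). Zfpm1 was near the control in the lower part (0.07, -0.17 to 0.30) and below it in the upper part (-0.48, -0.69 to -0.28).

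**Figure D4:**
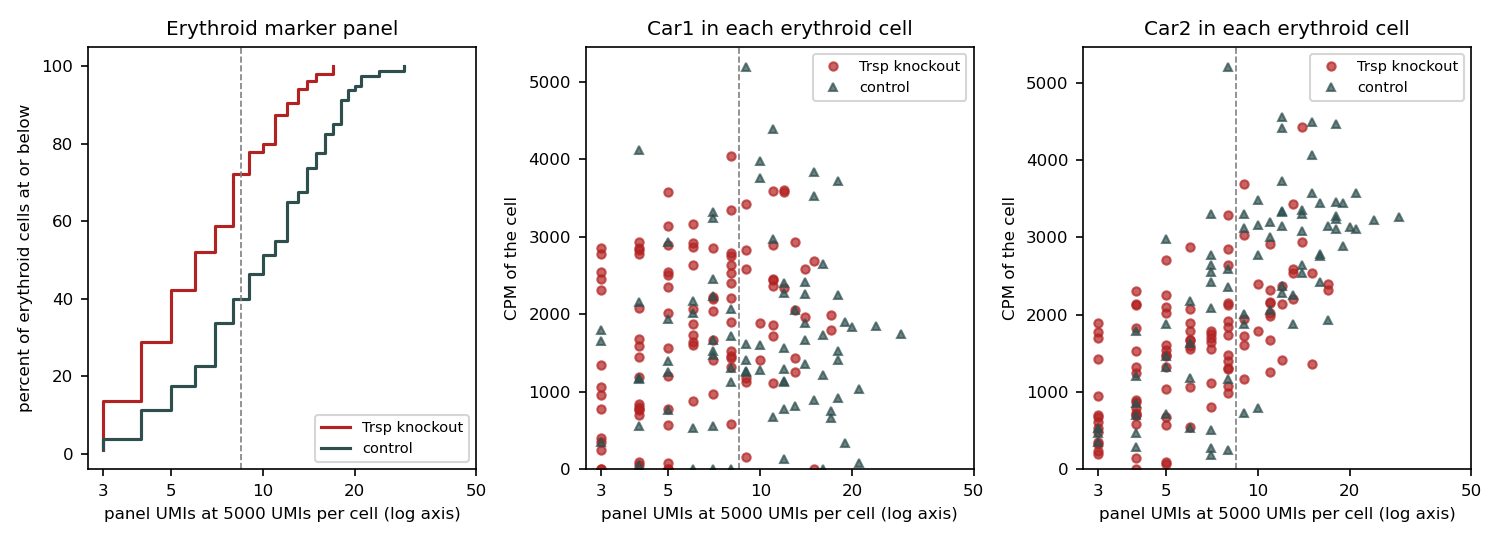
Left, the percent of erythroid cells at or below each number of marker-panel UMIs (log axis; knockout red, control dark). Middle and right, Car1 and Car2 in CPM of each erythroid cell against its panel UMIs. The dashed line divides 3 to 8 from 9 or more panel UMIs; knockout cells have a median of 6 and control cells of 10, and Car2 increases with the panel in both.

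In the megakaryocyte-erythroid class, 1 of 8 genes with enough UMIs was 1.5-fold apart, against 7.7% of all genes measured. Car1 had 149 UMIs (115 CPM) in the knockout and 44 UMIs (24.0 CPM) in the control (log2 ratio 2.26, 1.76 to 2.78). These came from few cells, 18 of 75 in the knockout and 14 of 128 in the control, and without the highest cell of each library the ratio was 2.33. A stricter gate gave 3.35 and a looser one 1.55. The erythroid panel was also higher in this class, at 148 CPM in the knockout and 87.1 CPM in the control, and its part in the Car1 ratio was not tested. The others lay between -0.32 (Gfi1b) and 0.44 (Car2), and Gata2, Gata1, Klf1, Zfpm1, Tal1 and Gfi1b had intervals that included 0.

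Among megakaryocyte cells, 2 of 7 genes were 1.5-fold apart, against 20.9% of all genes measured in these 21 knockout and 33 control cells. Gata2 was higher in the knockout, with 142 UMIs (313 CPM) against 130 UMIs (184 CPM) in the control (0.77, 0.41 to 1.12). Without the highest cell of each library it stood at 0.62, and over the alternatives tried it ranged from 0.40 to 1.13. Car1 was lower, at 32 UMIs against 236 UMIs (-2.24), but 1 cell held 31 of the 32 knockout UMIs and 1 cell held 234 of the 236 control UMIs. Without those 2 cells, 1 and 2 UMIs were left and no ratio is given. The megakaryocyte panel itself summed to 3944 CPM in the knockout and 10178 CPM in the control, with 7 and 9 of 9 markers found, and the HSC panel to 258 and 149 CPM.

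Among HSC-like cells, 0 of 5 genes was 1.5-fold apart, against 4.79% of all genes. Car2 came closest, with 560 CPM in the knockout and 410 CPM in the control (0.45, 0.38 to 0.52), the opposite direction to erythroid cells. Gata2 was at 116 and 101 CPM (0.19, 0.04 to 0.34), Zfpm1 at 64.2 and 78.8 CPM (-0.29, -0.48 to -0.11), and the intervals of Tal1 and Gfi1b included 0. In basophil or mast-like cells 0 of 7 was 1.5-fold apart, against 6.39% of all genes. Gfi1b stood at 40.4 CPM in the knockout and 29.2 CPM in the control there (0.47, 0.15 to 0.78), and Gata2 at 731 and 624 CPM (0.23, 0.16 to 0.30). Zfpm1 was below the control in erythroid (-0.30), HSC-like (-0.29), basophil or mast-like (-0.31), megakaryocyte-erythroid (-0.21) and megakaryocyte (-0.19) cells, with intervals wholly below 0 in the first 2 of these. Under the stricter gate the value in megakaryocyte-erythroid cells was 0.09.

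Car1 was lower in knockout neutrophil progenitor-like cells, at 2.61 CPM against 5.21 CPM in the control (-1.0, -1.34 to -0.66), where 1 of 8 genes was 1.5-fold apart against 7.09% of all genes, and 1 control cell held 73 of its 278 UMIs. With that cell and the highest knockout cell left out, the levels were 2.48 and 3.84 CPM. By number of cells the order was reversed, since a Car1 UMI was found at 5000 UMIs in 1.97% of 1372 knockout and 0.594% of 2189 control cells. Monocyte progenitor-like cells had nearly the same shares, 1.95% in the knockout and 0.443% in the control. Car2 was higher in knockout dendritic-like cells, at 40.8 CPM against 20.3 CPM (1.01), the 1 gene measured there, where 11.6% of all genes were 1.5-fold apart. There 1 knockout cell held 13 of 82 UMIs and 1 control cell 10 of 42. Car2 was also higher in maturing neutrophil-like cells, at 21.8 CPM against 9.73 CPM (1.17), 1 of 2 genes measured, against 9.85% of all genes. Below 1.5-fold, it was higher in monocyte (0.5, 0.28 to 0.73) and neutrophil (0.31, 0.19 to 0.43) progenitor-like cells and in basophil or mast-like cells (0.4, 0.16 to 0.65). Such a difference was not particular to Car2. Tal1 was also higher in monocyte (0.38, 0.2 to 0.57) and neutrophil (0.37, 0.24 to 0.51) progenitor-like cells. In eosinophil-like cells Car2 was lower (-0.57, -1.21 to 0.04). The part of free RNA in these ratios was not tested. Among the cells under 5000 UMIs, 3 of 5 measured genes were apart, against 26.1% of all genes, with Gata2 (67.9 CPM against 147 CPM) and Zfpm1 (24.9 against 39.7 CPM) lower in the knockout and Car1 (51.9 against 29.4 CPM) higher. The interval of Zfpm1 included 0 (-0.68, -1.4 to 0.09), from 23 control UMIs. That of Car1 lay just above 0 (0.82, 0.08 to 1.65), from 17 control UMIs.

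The 9 genes were set beside 76 other genes of their pathways. In erythroid cells 49 of the 76 had enough UMIs, and 7 were at least 1.5-fold higher in the knockout (against 7.42% of all genes) and 10 at least 1.5-fold lower (against 5.77%). None of the 17 measured partners of SCL, GATA1, FOG1 and GFI1B, a list that holds Lmo2, Ldb1 and Lyl1, was among them. Globin and late erythroid genes gave the most, with 2 of 12 higher and 6 of 12 lower and a median log2 ratio of -0.44, against 0.04 over all genes. Knockout erythroid cells had fewer panel UMIs, with a median of 6 against 10 in the control. The part of this in the ratios of the pathway genes was not tested, and only the globins were split by panel UMIs. Slc4a1, the band 3 anion exchanger, had 2.67 CPM in the knockout and 15.8 CPM in the control (-2.56), and Epb42, which encodes protein 4.2 of the red cell membrane, 6.17 and 23.5 CPM (-1.93). Hemgn had 108 and 182 CPM (-0.76), and Sox6, a repressor of embryonic globin, 12.1 and 24.2 CPM (-0.99).

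The 2 kinds of globin went opposite ways in erythroid cells. The beta globin genes Hbb-bs and Hbb-bt, KLF1 targets, together had 4079 CPM in the knockout and 2051 CPM in the control (0.99, 0.95 to 1.03). The alpha globin genes Hba-a1 and Hba-a2 together had 556 CPM in the knockout and 1560 CPM in the control (-1.49, -1.56 to -1.42). The genes of each pair are near-identical, so the split within a pair is uncertain, and the list counts above hold both beta globin genes as the 2 higher and both alpha globin genes among the 6 lower. Beta globin was found in 90 of 104 knockout and 50 of 80 control cells, and alpha globin in 76 and 59. In cells with 9 or more panel UMIs the beta sum was 7926 CPM in the knockout and 2805 CPM in the control, and the alpha sum 1223 and 2171 CPM. In cells with 3 to 8 panel UMIs the beta sum was 2327 and 612 CPM and the alpha sum 252 and 396 CPM, but there 1 control cell held 83.9% of the control's beta UMIs and 1 held 65.5% of its alpha UMIs. Beta globin also differed in classes that should lack it, with 6.39 CPM in knockout and 1.43 CPM in control monocyte progenitor-like cells. Alpha globin had 1.04 and 1.52 CPM there (-0.55, -1.18 to 0.07). In neutrophil progenitor-like cells both were higher in the knockout. Beta globin had 8.83 and 2.27 CPM, and alpha globin 2.09 and 1.09 CPM (0.94, 0.44 to 1.46). The part of free RNA in the erythroid ratio was not tested.

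The other lists with calls had 3 to 6 measured genes each. Over all genes of the erythroid class, 7.42% were at least 1.5-fold higher in the knockout and 5.77% at least 1.5-fold lower. Of 6 measured megakaryocyte factors and receptors, 3 were higher in knockout erythroid cells: Mafg, a small MAF partner of NF-E2, at 81.0 CPM against 46.0 CPM (0.82), Meis1 at 15.0 against 4.36 CPM (1.78) and Fli1 at 10.7 against 6.37 CPM (0.75, -0.04 to 1.59). Of 5 measured genes of erythropoietin receptor signalling, 1 was higher, the kinase gene Pim1, at 54.5 CPM in the knockout and 29.5 CPM in the control (0.88). Of 6 other KLF genes, Klf10 was higher (31.3 CPM against 14.1 CPM), and Klf2 (5.14 against 22.5 CPM), Klf4 and Klf13 were lower. The median log2 ratio of these KLF genes was -0.62. Klf4 is also a marker of the monocyte gate. Of 3 measured myeloid and lymphoid factors that oppose GATA1, Cebpa was lower, at 6.58 CPM against 11.1 CPM (-0.75). No other carbonic anhydrase and no other GATA or FOG factor reached 50 UMIs in this class.

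Mafg and Klf10 were also 1.5-fold higher in the knockout among megakaryocyte-erythroid cells, at 91.5 against 47.4 CPM and 89.2 against 40.8 CPM. They were 2 of 3 higher genes there, Sox6 being the other, against 4.79% of all genes, while Lyl1, Klf2 and Hbb-bt were lower, 3 of 46 measured, against 2.91%. Summed beta globin had 17.7 CPM in the knockout and 28.3 CPM in the control there (-0.68, -1.45 to 0.06), and 1 control cell held 76.9% of the control's UMIs. In megakaryocyte cells 12 of 37 were higher, against 11.8% of all genes, and 0 lower, against 9.08%. Klf6 (282 CPM against 117 CPM), Pim1 (119 against 49.5 CPM) and Myb (330 against 163 CPM) led these, in the cells whose own marker panel was lower in the knockout. Over all kept cells 63 were measured, with 5 higher, against 5.64% of all genes, and 3 lower, against 2.59%. The higher ones were Hbb-bs and Hbb-bt (summed, 157 CPM against 42.9 CPM), Klf10, Mafg and Car3, and the lower ones Slc4a1, Epb42 and Car7.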

How the data were processed

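The deposited matrices hold raw UMI counts. Cell Ranger 6.1.2 is named per the file headers, mm10 per the submitters' processing notes, and per the labels' protocols the kit was a 10x 3′ v3.1 one. Strand use, the calling of cells and the annotation release were not given in the sources used. A 3′ count does not scale with transcript length.

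Barcodes needed 500 genes or more and a mitochondrial share below 10%. Scrublet (scanpy 1.11.5, expected rate 10%) scored doublets. The control's automatic threshold, 0.433, was used for both libraries and removed 66 knockout cells (0.984%) and 146 control cells (1.78%). Cells were thinned to 5000 UMIs and gated in a fixed order by 13 panels, each asking for at least 2 distinct markers (some markers of the erythroid panel are not reported here), with 1386 knockout and 1725 control cells left ungated. Gate thresholds were set, and Vamp5, Nkg7 and Icam4 set aside, after the panels' counts were seen. Groups came from the genotype labels. Levels are summed UMIs of the class scaled to 1000000 (CPM). Intervals are exact Poisson, exact binomial (Clopper-Pearson) or, for ratios of UMIs, exact conditional binomial ones at 95%; a ratio of shares has a normal interval on the log scale. A gene was called apart at 1.5-fold with at least 50 UMIs over both libraries. The ratio and its interval were tested on simulated data. The 9 genes and the pathway lists were chosen with earlier results of these data known. The rule for named genes took all 9, pathway genes 1.5-fold or more apart (at most 12 per comparison), list examples, and the 3 genes most like each member. Several pathway genes were instead given by name only. Alternatives changed the doublet and barcode filters, the gate threshold, the thinning, the scaling, the cell weights, the UMI floor and the fold.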

Additional observations from a re-analysis of the deposited data

Results flagged for a closer look

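Car1 went opposite ways in different classes, with log2 ratios of knockout over control of 2.26 in megakaryocyte-erythroid progenitor-like cells and -2.24 in megakaryocyte-like cells. The difference between the classes was not tested, and the megakaryocyte value rests on 1 cell in each library.

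Car2 was lower in the knockout among erythroid progenitor-like cells (-0.59) and higher in maturing neutrophil-like cells (1.17), and it was higher in HSC-like cells as well. Zfpm1 was lower in erythroid progenitor-like cells (-0.30) and higher in monocyte progenitor-like cells (0.38). Neither difference was tested. The Zfpm1 value in erythroid cells with 3 to 8 panel UMIs was 0.07. In monocyte progenitor-like cells Zfpm1 had 4.59 CPM in the knockout and 3.52 CPM in the control, and 1 knockout cell held 14 of 150 UMIs. Without the highest cell of each library these levels were 4.16 and 3.44 CPM.

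Among the 4850 knockout and 6180 control barcodes that the filters set aside, Car1 had 25.6 CPM in the knockout and 21.5 CPM in the control (log2 ratio 0.25, 0.01 to 0.49). Other genes were lower in the knockout there, with intervals below 0. These were Gata1 (-0.68, -1.28 to -0.1), Klf1 (-0.68, -1.31 to -0.08), Zfpm1 (-0.62, -0.89 to -0.35) and Gata2 (-0.19, -0.37 to -0.01). The intervals of Tal1, Gfi1b, Epor and Car2 included 0.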

How the results depend on the processing

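No paired analysis was possible because each genotype has 1 library and nothing pairs them. Over all kept cells the log2 ratio of Car1 was 1.03 with doublets kept, 1.5 under the stricter barcode filter, 0.86 with median-of-ratios size factors and 0.13 at the control's class shares. The number of the 9 genes at least 1.5-fold higher was 5 under the stricter filter, 2 with cells weighted equally and 0 at 2-fold. Car2 in erythroid cells was -0.53 with gates on unthinned UMIs, -0.52 with the stricter gate, -0.63 with median-of-ratios size factors, and -0.29 and -0.44 in the lower and upper panel parts. It left 0 genes 1.5-fold lower there with doublets kept, under the stricter filter, with all 3 other gate settings, with equal cell weights, with another draw of the thinning and at 2-fold. The log2 share ratio of the erythroid class was 1.59 under the stricter filter and otherwise 0.50 to 0.86. The counts of pathway genes 1.5-fold higher and lower over all kept cells, 5 and 3, were 3 and 5 with median-of-ratios size factors and 2 and 1 at 2-fold, and the lower count was 6 at a floor of 20 UMIs and 0 at 200. In erythroid cells 7 and 10 became 4 and 4 at a floor of 200 UMIs and 3 and 5 at 2-fold. In megakaryocyte-erythroid cells 3 and 3 ranged over 1 to 7 and 0 to 6, and in megakaryocyte cells 12 and 0 over 2 to 15 and 0 to 2. Of 74 results, 8 moved beyond their interval or by more than 1.5 times in most of their settings. These were Gata1, Klf1, Zfpm1, Gfi1b, Car1 and Car2 over all kept cells, the count of the 9 genes lower in erythroid cells, and Car2 in megakaryocyte cells (0.29, over -0.41 to 0.82). Of all results and settings together 545 stayed and 127 moved, and no value 1.5-fold or more apart changed sign. The cause was not tested. At 21 to 128 cells a class, counting error and single cells limit the lineage classes.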
